A study of Homo sapiens with 39 samples.

Results

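BCAT1 and 8 enzymes of serine synthesis and folate one-carbon metabolism were followed across 4 human B cell lymphoma lines after 6 h with bromodomain inhibitors or a Notch pathway inhibitor. The genes were chosen by symbol, from the roles of their proteins and with earlier results of these data known. Their p-values are therefore not those of a set picked blind to the data. All 9 (BCAT1, PHGDH, PSAT1, PSPH, SHMT1, SHMT2, MTHFD1, MTHFD2 and MTHFD1L) were found among the 15808 genes of the deposited count table. All 9 were also among the 12814 genes that passed the filter on low counts and were tested. Of the 9, BCAT1 fell with both bromodomain inhibitors and MTHFD1 fell with NEO2734 when the 4 lines were averaged, while PHGDH, SHMT1, SHMT2 and MTHFD2 were not called in any comparison of a compound with DMSO, also under every alternative run.

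The study sequenced RNA of 39 libraries in 13 groups of 3. DOHH2, OCILy10, TMD8 and Toledo each had a group given NEO2734, a group given OTX015 and a group given the vehicle DMSO, and OCILy10 had a further group given CB103, all for 6 h. NEO2734 is known to block the bromodomains of BET proteins and of the acetyltransferases CBP and p300, OTX015 (birabresib) to block those of BET proteins, and CB103 to block the Notch transcription complex. DOHH2 and Toledo are lines of germinal centre type and OCILy10 and TMD8 of activated B cell type, and each is 1 established line that speaks only for itself. Doses are not in the labels, so NEO2734 and OTX015 could not be matched by dose, and nothing there says that replicates are separate cultures, so the p-values measure a spread between libraries that may be technical.

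Serine is made in the cytosol from an intermediate of glycolysis in a chain of steps catalysed by PHGDH, PSAT1 and PSPH. SHMT1 in the cytosol and SHMT2 in mitochondria split serine into glycine and a one-carbon unit carried on tetrahydrofolate. MTHFD2 oxidises the mitochondrial unit and MTHFD1L releases it as formate. MTHFD1 takes formate up in the cytosol, where the unit serves purine, thymidylate and methionine synthesis. BCAT1, the cytosolic branched-chain aminotransferase, moves amino groups between leucine, isoleucine or valine and glutamate. Several of these genes are known targets of MYC, which binds the E-box, and of ATF4, which binds a composite C/EBP-ATF element.

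The promoters of BCAT1, MTHFD1 and MTHFD1L are printed because these genes had the lowest averaged log2 fold changes with NEO2734 (that of MTHFD1L was not called), and that of MTHFD2 because its value lay nearest to 0. Each runs 5′ to 3′ on the gene's strand from 250 bases before to 50 bases after a start site in RefSeq (GRCh38.p14), and capitals mark the E-box CACGTG, a palindrome that reads alike on both strands, or the letters TGATGNAA of the composite element, searched on both strands. They lie at chr12:24949052-24949351 (minus strand, BCAT1), chr14:64388103-64388402 (plus strand, MTHFD1), chr6:150866236-150866535 (plus strand, MTHFD1L) and chr2:74198365-74198664 (plus strand, MTHFD2).
BCAT1 start site 1: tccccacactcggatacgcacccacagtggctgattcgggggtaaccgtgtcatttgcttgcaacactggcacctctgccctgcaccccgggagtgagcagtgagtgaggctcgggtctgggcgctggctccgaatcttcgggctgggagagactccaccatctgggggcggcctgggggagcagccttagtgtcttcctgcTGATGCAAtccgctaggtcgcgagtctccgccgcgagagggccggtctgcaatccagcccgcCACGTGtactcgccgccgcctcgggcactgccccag
MTHFD1: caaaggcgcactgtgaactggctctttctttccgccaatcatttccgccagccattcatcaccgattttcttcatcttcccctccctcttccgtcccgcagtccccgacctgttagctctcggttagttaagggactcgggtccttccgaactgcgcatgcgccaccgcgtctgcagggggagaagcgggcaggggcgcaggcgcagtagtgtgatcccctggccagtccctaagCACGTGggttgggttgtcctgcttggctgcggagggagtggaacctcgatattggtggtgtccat
MTHFD1L start site 1: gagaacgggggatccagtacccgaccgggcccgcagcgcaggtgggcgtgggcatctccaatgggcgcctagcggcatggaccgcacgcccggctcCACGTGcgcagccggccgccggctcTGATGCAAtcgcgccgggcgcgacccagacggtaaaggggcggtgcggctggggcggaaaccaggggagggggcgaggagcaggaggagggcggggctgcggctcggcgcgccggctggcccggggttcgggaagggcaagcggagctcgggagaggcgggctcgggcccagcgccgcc
MTHFD2: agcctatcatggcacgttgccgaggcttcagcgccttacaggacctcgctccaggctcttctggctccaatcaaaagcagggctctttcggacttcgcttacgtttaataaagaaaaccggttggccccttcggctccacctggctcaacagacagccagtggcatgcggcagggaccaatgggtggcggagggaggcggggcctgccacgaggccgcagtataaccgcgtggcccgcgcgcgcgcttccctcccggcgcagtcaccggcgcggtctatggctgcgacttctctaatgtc

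RefSeq start sites were matched for 7 of the 9 genes, with 5 sites for BCAT1, 4 for MTHFD1L and 1 each for PHGDH, PSAT1, SHMT1, MTHFD1 and MTHFD2; PSPH and SHMT2 are named only. BCAT1 held 1 E-box and 1 composite match at site 1, and neither at the other 4 sites. MTHFD1 held 1 E-box and no composite match. The overlapping windows of MTHFD1L sites 1 to 3 shared 1 match of each kind, and site 4 had neither. The windows of PHGDH, PSAT1, SHMT1 and MTHFD2 had neither. Over all 35116 promoters of the table, 2548 (7.26%) held CACGTG and 1270 (3.62%) held TGATGNAA. A match shows that the letters are there and is not a measured binding site.

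Levels are in CPM, counts scaled to each library's total times its TMM factor, a correction for differences in composition. Library totals fell into 15 deep libraries of 6670250 to 11668542 counts and 24 shallow ones of 1000281 to 3420458, and 12 of the 15 deep libraries were replicate 1 of their group. With depth class as a term beside the 13 groups, 8 of the 9 genes were higher in deep than in shallow libraries, by 0.60 (MTHFD1) to 1.40 (SHMT1) on the log2 scale, while BCAT1 differed by -0.17 ± 0.11 (SE, adjusted p = 0.185); 59.6% of all genes tested differed between the classes. Results are therefore given with and without that term. Genes private to another line stood in 3 libraries: Toledo DMSO replicate 2 held OCILy10 genes at 74.1% of their OCILy10 level (Toledo genes at 41.3%), Toledo genes reached 29.8% in OCILy10 CB103 replicate 2 (OCILy10 genes at 80.8%), and OCILy10 genes reached 11.5% in DOHH2 NEO2734 replicate 3 (DOHH2 genes at 72.3%), whereas the other 36 libraries held at most 2.29% of another line. All 7 B cell markers were in the table (MS4A1, CD79A, CD79B, PAX5, CD22 and BLK among them), with summed levels of 433 to 3938 CPM per library. Of 6 T cell markers 3 were in the table and summed to at most 119.8 CPM (median 3.82), and of 5 monocyte markers 2 were, summing to at most 4.79 CPM. In bulk RNA, fewer cells of a kind and less RNA per cell cannot be told apart.

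**Figure D1:**
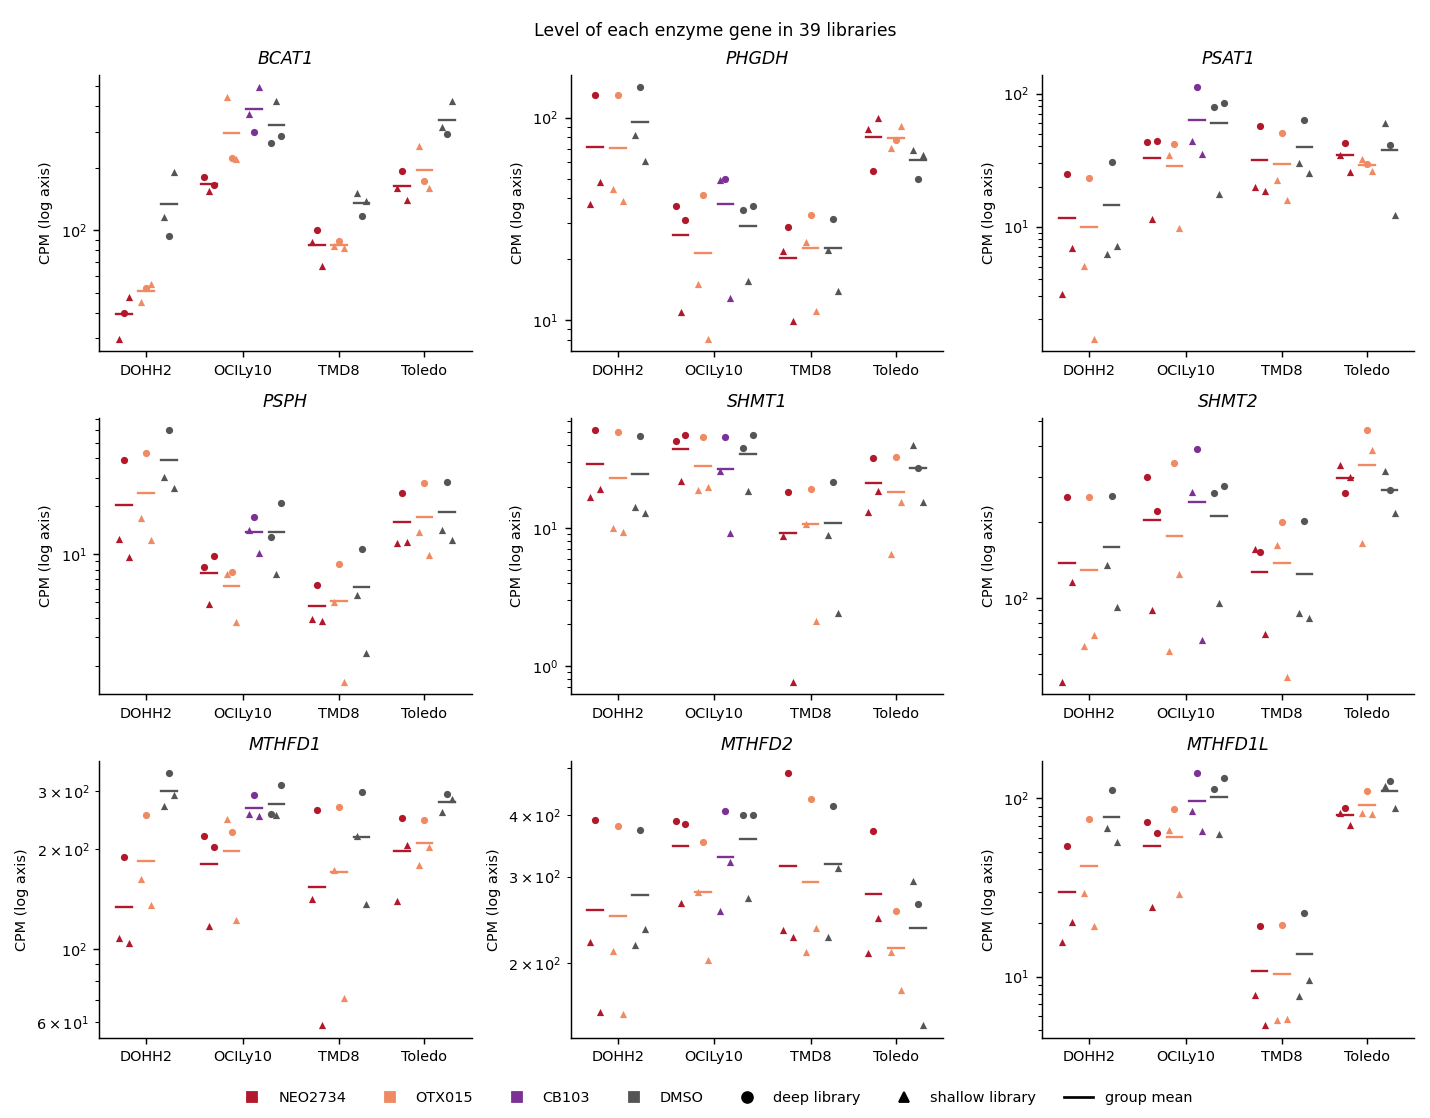
CPM on log axes of the 9 genes in 39 libraries, by line and, within each line from left to right, NEO2734, OTX015, CB103 (OCILy10) and DMSO; circles are deep libraries, triangles shallow ones and bars group means. BCAT1 lies lower with NEO2734 than with DMSO in every line, while in most other panels the deep library of a group stands above its shallow ones.

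BCAT1 had its lowest fitted fold changes in DOHH2. There it had 39.8, 29.9 and 47.8 CPM with NEO2734 and 52.5, 45.2 and 55.2 CPM with OTX015, against 94.1, 116 and 192 CPM with DMSO. All 6 treated libraries lay below the lowest DMSO library. For this and later groups that stood apart, the share of all genes doing so was not computed. The log2 fold change was -1.77 ± 0.28 (SE, adjusted p = 0.00071) with NEO2734 and -1.39 ± 0.28 (adjusted p = 0.0356) with OTX015, or 0.293 and 0.381 of the DMSO level. The background is small in these comparisons, with 2.9% of all genes called for NEO2734 and 0.125% for OTX015 in DOHH2 by edgeR's quasi-likelihood test with Benjamini-Hochberg adjustment (adjusted p under 0.05, the rule for every call here). Leaving out DOHH2 NEO2734 replicate 3, which held OCILy10 genes, with the other libraries of that kind gave -1.92 ± 0.34 (adjusted p = 0.00522) for NEO2734. The OTX015 call was lost when any of 5 libraries was left out, DMSO replicate 2 (adjusted p = 0.0983) or 3 (0.25) or OTX015 replicate 1 (0.0537), 2 (0.213) or 3 (0.244), with log2 fold changes of -1.04 to -1.48.

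In Toledo, BCAT1 had 161, 140.1 and 193 CPM with NEO2734 and 174, 257 and 160.2 CPM with OTX015, against 292, 316 and 426 CPM with DMSO. Here too no treated library reached the lowest DMSO library. The difference with NEO2734 was called (-1.06 ± 0.27, adjusted p = 0.0212; 5.47% of all genes were called), and that with OTX015 was not (-0.81 ± 0.27, adjusted p = 0.107; 3.09% of all genes). The library labelled Toledo DMSO replicate 2, which held OCILy10 genes, had 316 CPM, against a mean of 359 CPM in the other Toledo DMSO libraries. Without the 3 libraries with another line's genes the NEO2734 value was -1.10 ± 0.31 and no longer passed (adjusted p = 0.109). In that fit only 0.623% of all genes were called with NEO2734 in Toledo and 0.0608% with OTX015. The NEO2734 value of BCAT1 also missed the threshold without Toledo DMSO replicate 2 alone (0.0858), DMSO replicate 3 (0.0731) or NEO2734 replicate 1 (0.0943) or 2 (0.117).

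In OCILy10, BCAT1 had 182, 167 and 155 CPM with NEO2734, 224, 443 and 223 CPM with OTX015, and 300.2, 367 and 496 CPM with CB103, against 266, 288 and 422 CPM with DMSO. The 3 NEO2734 libraries were below all DMSO libraries, while those of OTX015 and CB103 overlapped them. None of the 3 compounds passed the test in this line: the log2 fold change was -0.95 ± 0.27 with NEO2734 (adjusted p = 0.0841; 1.01% of all genes called), -0.14 ± 0.27 with OTX015 (adjusted p = 0.985; 0.0702% of all genes) and 0.25 ± 0.27 with CB103 (adjusted p = 1). With depth class in the fit, the NEO2734 fall in OCILy10 was called, together with that of MTHFD1L, when 4.89% of all genes were.

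In TMD8, BCAT1 had 101, 87.5 and 67.3 CPM with NEO2734 and 89.2, 83.9 and 82.6 CPM with OTX015, against 118, 152 and 138 CPM with DMSO. The groups did not overlap, yet neither difference passed the test over all genes: -0.67 ± 0.27 for NEO2734 (adjusted p = 0.281; 2.17% of all genes called) and -0.67 ± 0.27 for OTX015 (adjusted p = 0.512; 0.39% of all genes). The F-test for a change that differs between the 4 lines did not single out BCAT1 with NEO2734 (adjusted p = 0.83), so the order of the lines is a description.

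Averaged over the 4 lines, BCAT1 fell with both compounds, to 0.463 times the DMSO level with NEO2734 (log2 fold change -1.11 ± 0.14, SE, adjusted p = 1.23e-06) and 0.594 times with OTX015 (-0.75 ± 0.14, adjusted p = 0.000494). BCAT1 and MTHFD1 were the 2 members of 9 called with NEO2734, both lower, against 20.5% of all genes tested, and BCAT1 was the 1 member called with OTX015, against 11.6%; these shares of the 9 are close to the background. The comparisons of NEO2734 and OTX015 share their DMSO libraries. BCAT1 passed in both averages without the 3 libraries with another line's genes (-1.16 ± 0.15, adjusted p = 6.75e-06, with NEO2734; -0.76 ± 0.15, adjusted p = 0.00125, with OTX015). Its fall with NEO2734 was -0.69 ± 0.12 in deep libraries alone and -1.40 ± 0.20 in shallow libraries alone, and with OTX015 -0.57 ± 0.13 in deep and -0.91 ± 0.18 in shallow libraries alone, each of them called; whether depth plays a part in this gap was not tested. The fit of deep libraries used line and compound as separate terms, since every group but OCILy10 NEO2734 and OCILy10 DMSO, with 2 deep libraries each, had 1.

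**Figure D2:**
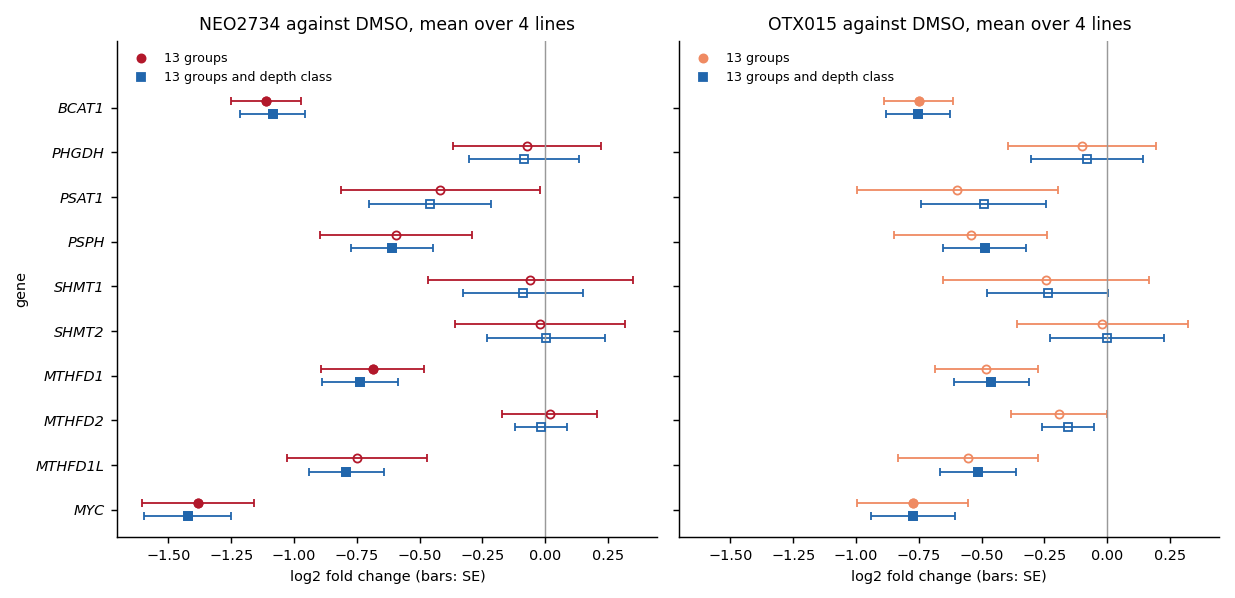
Log2 fold change (x axis, bars SE) of the 9 genes and MYC for NEO2734 (left) and OTX015 (right) against DMSO, averaged over 4 lines, from the fit with 13 groups and from the fit with depth class added; filled symbols have an adjusted p under 0.05. BCAT1 lies at -1.11 and -0.75 in the fit with 13 groups, and MTHFD2 near 0 at 0.02 and -0.19.

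MTHFD1, the cytosolic enzyme that joins formate to tetrahydrofolate and interconverts the products, fell with NEO2734 in the average, at 0.621 times the DMSO level (log2 fold change -0.69 ± 0.21, adjusted p = 0.0158). In DOHH2 it had 189, 108 and 104 CPM with NEO2734 and 254, 163 and 136 CPM with OTX015, against 339, 270.4 and 290.4 CPM with DMSO. In OCILy10 it had 219, 203 and 117 CPM with NEO2734 and 225, 247 and 122 CPM with OTX015, against 255, 312 and 254 CPM with DMSO. In both lines the treated libraries stayed below all DMSO libraries.

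In Toledo, MTHFD1 had 139, 205 and 248 CPM with NEO2734 and 245, 179 and 204 CPM with OTX015, against 293, 258 and 282 CPM with DMSO, again without overlap. In TMD8 it had 262, 141 and 58.9 CPM with NEO2734 and 268, 174 and 71.1 CPM with OTX015, against 299, 219 and 137 CPM with DMSO, and here the groups overlapped, although each treated library was below the DMSO library of its number. No single line passed the test for MTHFD1, and the lowest value was that in DOHH2 with NEO2734 (-1.16 ± 0.41, adjusted p = 0.128). With OTX015 the average was -0.48 ± 0.20 (adjusted p = 0.137), which passed with depth class in the fit (-0.46 ± 0.15, adjusted p = 0.0281) and with replicate number as a block (-0.52 ± 0.17, adjusted p = 0.0309). The averaged NEO2734 fall passed in all 34 alternatives run, with log2 fold changes of -0.995 to -0.437 and adjusted p of 0.000364 to 0.0442, the highest without the 3 libraries with another line's genes.

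MTHFD1L, the mitochondrial enzyme that releases formate, had an averaged log2 fold change of -0.75 ± 0.28 with NEO2734 (adjusted p = 0.0549) and -0.55 ± 0.28 with OTX015 (adjusted p = 0.227), neither called. In DOHH2 it had 53.8, 15.6 and 20.2 CPM with NEO2734 and 76.1, 29.6 and 19.4 CPM with OTX015, against 111, 68.1 and 56.9 CPM with DMSO, and the deep library was the highest in each group. DOHH2 with NEO2734 was the one comparison in which its groups did not overlap. In OCILy10 it had 73.3, 64.0 and 24.5 CPM with NEO2734 and 87.7, 66.4 and 29.1 CPM with OTX015, against 112, 130.3 and 62.7 CPM with DMSO.

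In Toledo, MTHFD1L had 82.8, 70.9 and 88.4 CPM with NEO2734 and 109.8, 82.9 and 82.2 CPM with OTX015, against 126, 117 and 88.0 CPM with DMSO. TMD8 held little of it, 19.2, 7.87 and 5.35 CPM with NEO2734 and 19.4, 5.74 and 5.79 CPM with OTX015, against 22.7, 7.76 and 9.61 CPM with DMSO. The treated and DMSO libraries overlapped in both lines. With depth class in the fit the averages were -0.79 ± 0.15 (adjusted p = 0.000142) with NEO2734 and -0.51 ± 0.15 (adjusted p = 0.0143) with OTX015, so both passed. With replicate number as a block both passed as well, at -0.78 ± 0.17 (adjusted p = 0.00122) with NEO2734 and -0.62 ± 0.17 (adjusted p = 0.0139) with OTX015. Same-numbered libraries deviated together in only some of the lines, where they also shared depth class. The NEO2734 average also passed with upper quartile scaling (adjusted p = 0.0471) and by DESeq2 (0.0212), and both averages passed in shallow libraries alone (0.00409 with NEO2734, 0.043 with OTX015). MTHFD1L was also called with NEO2734 when DOHH2 NEO2734 replicate 1 (adjusted p = 0.0157), OCILy10 DMSO replicate 3 (0.0443), OCILy10 NEO2734 replicate 1 (0.0483), TMD8 DMSO replicate 2 (0.0449) or TMD8 NEO2734 replicate 1 (0.0196) was left out.

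With depth class as a term, 4 of the 9 genes fell in the NEO2734 average (BCAT1, PSPH, MTHFD1 and MTHFD1L), where 30.5% of all genes were called, and the same 4 fell in the OTX015 average, where 20.1% were. The same 4 fell with NEO2734 in DOHH2, where 8.8% of all genes were called: BCAT1 by 1.74, MTHFD1L by 1.47, MTHFD1 by 1.21 and PSPH by 1.03 on the log2 scale. Same-numbered NEO2734 and DMSO libraries of DOHH2 deviated together, and they also shared depth class, with replicate 1 deep in each group. Whether the number holds more than depth was not tested. With the number as a block 3 genes fell in DOHH2, BCAT1, MTHFD1 (-1.21 ± 0.34, adjusted p = 0.0328) and MTHFD1L (-1.46 ± 0.35, adjusted p = 0.0122), beside 5.33% of all genes.

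**Figure D3:**
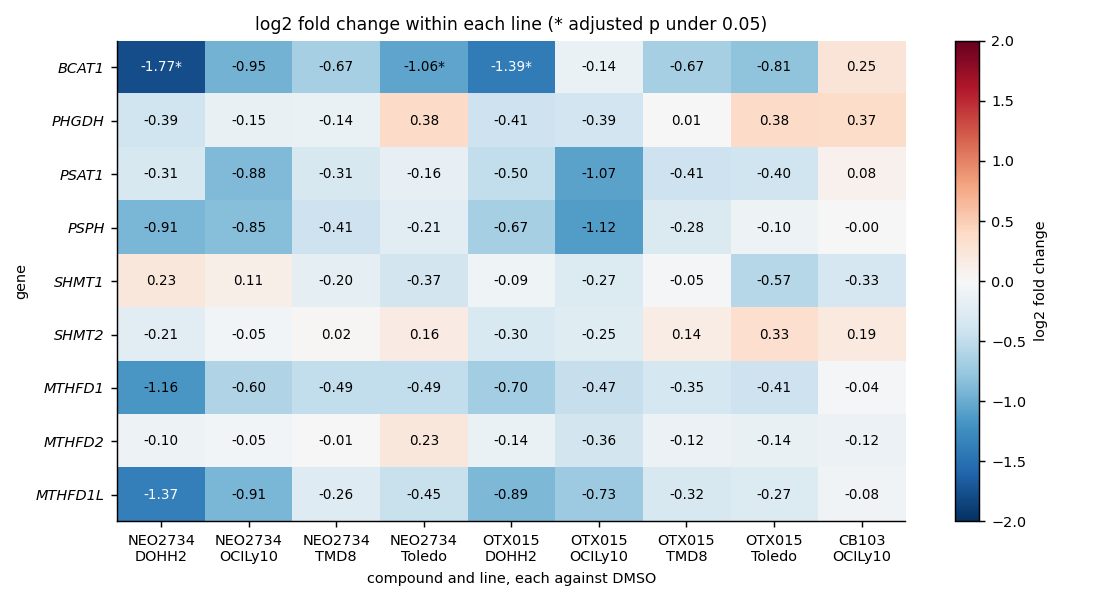
Log2 fold change against DMSO of the 9 genes (rows) for each compound and line (columns), from the fit with 13 groups; an asterisk marks an adjusted p under 0.05. The 3 asterisks are BCAT1 with NEO2734 in DOHH2 and Toledo and with OTX015 in DOHH2, and values of BCAT1, PSAT1, PSPH, MTHFD1 and MTHFD1L are below 0 in all 8 columns of NEO2734 and OTX015. Columns of a line share its DMSO group, and the signs are those of this fit. In alternatives, values reached 0.90 for PSAT1 (NEO2734, DOHH2), 0.44 for PSPH (OTX015, TMD8) and 0.42 for MTHFD1L (NEO2734, TMD8). They reached 0.09 for BCAT1 (OTX015, OCILy10) and 0.02 for MTHFD1 (OTX015, TMD8).

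Of the serine synthesis genes, PHGDH, which catalyses the first committed step, was near its DMSO level in the averages, at -0.07 ± 0.29 with NEO2734 (adjusted p = 0.951) and -0.10 ± 0.29 with OTX015 (adjusted p = 0.951). The 95% intervals of these changes ran from -0.67 to 0.53 and from -0.70 to 0.50 on the log2 scale, so changes of that size were not detectable. It averaged 71.8 ± 50.5 CPM with NEO2734, 70.9 ± 50.7 with OTX015 and 94.6 ± 41.8 with DMSO in DOHH2 (SD, n = 3 each, as for the means below). In Toledo it averaged 80.4 ± 23.3 CPM with NEO2734, 79.7 ± 10.5 with OTX015 and 61.5 ± 10.2 with DMSO. The 3 OTX015 libraries (70.5 to 91.2 CPM) all lay above the DMSO libraries (49.9 to 69.1 CPM), the one case in which a member stood apart above DMSO. The margin was narrow, and the DMSO library at 69.1 CPM was replicate 2, which held OCILy10 genes. The log2 fold change of PHGDH with OTX015 in Toledo was 0.38 ± 0.58 and was not called (adjusted p = 0.943).

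PSAT1, the aminotransferase of the pathway, had averaged values of -0.42 ± 0.40 with NEO2734 (adjusted p = 0.56) and -0.60 ± 0.40 with OTX015 (adjusted p = 0.406), and its libraries spread widely, from 1.43 to 112 CPM over the series. In OCILy10 it averaged 32.8 ± 18.5 CPM with NEO2734, 28.7 ± 16.8 with OTX015 and 63.7 ± 42.0 with CB103, against 60.6 ± 37.3 with DMSO. In the fit of deep libraries alone, in which OCILy10 weighs more, PSAT1 was called at -0.47 ± 0.14 (adjusted p = 0.0248) with NEO2734 and -0.63 ± 0.15 (adjusted p = 0.0185) with OTX015. The plain means of the 4 lines' differences between deep libraries were -0.33 with NEO2734, lower than DMSO in 3 of 4 lines, and -0.54 with OTX015, lower in 4 of 4.

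PSPH, the phosphatase that releases serine, averaged -0.60 ± 0.30 with NEO2734 (adjusted p = 0.184) and -0.54 ± 0.30 with OTX015 (adjusted p = 0.291). In DOHH2, where it was highest, it averaged 20.3 ± 16.1 CPM with NEO2734 and 24.0 ± 16.7 with OTX015, against 38.6 ± 18.4 with DMSO. The deep library of each of these groups had the highest value, 38.8 CPM with NEO2734, 43.2 with OTX015 and 59.7 with DMSO. With depth class in the fit both averages passed, at -0.61 ± 0.16 (adjusted p = 0.0042) with NEO2734 and -0.49 ± 0.16 (adjusted p = 0.0339) with OTX015. Reads of PSPH and of its pseudogene copy PSPHP1, also in the table, may be split between them.

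The serine hydroxymethyltransferases showed averages near 0 with wide errors. SHMT1, the cytosolic form, changed by -0.06 ± 0.41 with NEO2734 and -0.24 ± 0.41 with OTX015, and SHMT2, the mitochondrial form, by -0.02 ± 0.34 with both (adjusted p of 0.843 to 1). SHMT2 averaged 299 ± 37.2 CPM with NEO2734 and 337 ± 154 with OTX015, against 268 ± 51.2 with DMSO in Toledo, its highest line. SHMT1 was lowest in TMD8, at 9.22 ± 8.70 CPM with NEO2734 and 10.6 ± 8.46 with OTX015, against 10.9 ± 9.70 with DMSO. In all 3 TMD8 groups the SD was close to the mean.

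MTHFD2, the mitochondrial dehydrogenase and cyclohydrolase, had the narrowest error of the genes not called, at 0.02 ± 0.19 with NEO2734 (95% interval -0.37 to 0.41) and -0.19 ± 0.19 with OTX015 (95% interval -0.58 to 0.20). Its means in DOHH2 were 257 ± 121 CPM with NEO2734 and 249.8 ± 116 with OTX015, against 275 ± 85.4 with DMSO. In TMD8 they were 316 ± 149 CPM with NEO2734 and 293 ± 121 with OTX015, against 319 ± 96.5 with DMSO. Every line's MTHFD2 groups overlapped their DMSO group for both compounds.

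None of the 9 genes was called between NEO2734 and OTX015 in the average over lines. The difference for BCAT1 was -0.36 ± 0.14 on the log2 scale (95% interval -0.64 to -0.08, adjusted p = 1), lower with NEO2734, and that for MTHFD1 was -0.21 ± 0.20 (95% interval -0.62 to 0.21). Only 4 genes, 0.0312% of those tested, were called between the compounds by edgeR, with 499 at an unadjusted p under 0.05, 1 of them a member; DESeq2 called 11 and limma-voom 2, none a member. With no doses known, the values stand side by side and do not rank the compounds.

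CB103 gave no call among the 9 genes in OCILy10. Log2 fold changes ran from -0.33 (SHMT1) to 0.37 (PHGDH), and MTHFD1, at 266 ± 22 CPM with CB103 against 274 ± 33.6 with DMSO, lay at -0.04 ± 0.41. By edgeR 0.0% of all genes (0 of 12814) were called, with 273 genes and 0 members at an unadjusted p under 0.05, while DESeq2 called 27 genes and limma-voom 0. The CB103 libraries included replicate 2, which held Toledo genes. Leaving it out with the others of its kind also gave 0 called genes, while 92 genes and 0 members were called without replicate 1, whose column differs between the deposited tables.

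No member's change was called as different between the lines, which does not show that the changes were alike. The F-test called 2 genes (0.0156% of those tested) for NEO2734 and 0 (0.0%) for OTX015 by edgeR, with 783 and 478 genes at an unadjusted p under 0.05, of which 0 and 1 were members; limma-voom called 2 and 0 genes. With NEO2734 the fitted values of BCAT1 lay between -1.77 in DOHH2 and -0.67 in TMD8, and those of MTHFD1L between -1.37 in DOHH2 and -0.26 in TMD8.

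Under the vehicle the lines differed in several of these genes. In DMSO libraries, 4 of the 9 differed between the lines (BCAT1, adjusted p = 3.5e-05, MTHFD1L, 0.00081, PSPH, 0.0068, and PHGDH, 0.0142), against 48.1% of all genes tested. The same 4 were called without the 3 libraries with another line's genes, against 51.6% of all genes. The Toledo means and ranges here include DMSO replicate 2, which held OCILy10 genes. BCAT1 was highest in Toledo (345 ± 71.2 CPM) and OCILy10 (325 ± 84.5), whose ranges overlapped, and stood apart below them in TMD8 (136 ± 17.1) and DOHH2 (134 ± 51.4), which also overlapped. MTHFD1L was at 110.1 ± 19.7 CPM in Toledo, 102 ± 35 in OCILy10 and 78.7 ± 28.6 in DOHH2, with overlapping ranges, and apart below them at 13.3 ± 8.12 CPM in TMD8.

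PHGDH ran in another order, with 94.6 ± 41.8 CPM in DOHH2 and 61.5 ± 10.2 in Toledo, the lines of germinal centre type, and apart below them 29.1 ± 11.8 in OCILy10 and 22.6 ± 8.90 in TMD8. PSPH was likewise highest in DOHH2 (38.6 ± 18.4 CPM) and lowest in TMD8 (6.24 ± 4.24), with each neighbour in the order overlapping the next. MTHFD1 (218 to 299.8 CPM), MTHFD2 (236 to 358), SHMT2 (124 to 268), SHMT1 (10.9 to 34.5) and PSAT1 (14.6 to 60.6) had line means whose libraries overlapped between all neighbours. With depth class in the fit PSAT1 (adjusted p = 0.0161) and SHMT1 (0.0251) differed as well, 6 of 9 against 66.2% of all genes. The calls of PHGDH (adjusted p = 0.0762) and PSPH (0.0594) were lost without DOHH2 DMSO replicate 1, a deep library.

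Per kilobase of merged exons, MTHFD2 had the highest level in DMSO libraries, at 60.9 CPM per kb averaged over the lines, followed by SHMT2 (39.4), MTHFD1 (28.5), BCAT1 (20.0), PSAT1 (17.4) and MTHFD1L (15.1). PSPH (6.97), PHGDH (5.64) and SHMT1 (3.35) were lowest on that scale. The order depends on the length used: by the length of the principal transcript, given for 6 of the genes, MTHFD1 had 85.3, MTHFD2 66.6, PHGDH 20.1, PSAT1 17.4, SHMT1 9.89 and PSPH 8.84 CPM per kb.

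**Figure D4:**
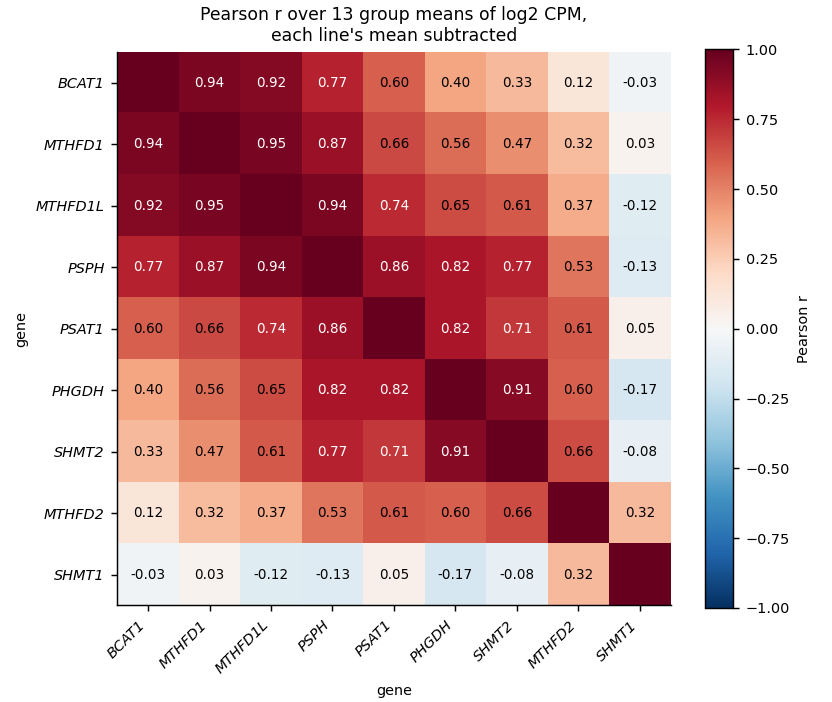
Pearson r between the 9 genes over 13 group means of log2 CPM after subtracting each line's mean. BCAT1, MTHFD1, MTHFD1L and PSPH form a block with r of 0.77 to 0.95, and SHMT1 lies between -0.17 and 0.32 with every other gene.

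Across the 13 group means, with each line's mean subtracted, BCAT1 ran closest to MTHFD1 (r = 0.943) and MTHFD1L (r = 0.916), and these enzymes to each other (r = 0.953). PHGDH ran closest to SHMT2 (r = 0.913). SHMT1 had r of -0.17 to 0.32 with the others. These values describe 13 points that share lines, DMSO groups and the mix of deep and shallow libraries. Among all genes of at least 5 CPM, those with the pattern most like BCAT1 were TSR1 (r = 0.992), CHD3 (0.983) and VAMP8 (0.980), those most like PHGDH were TMEM161A (0.937), DHCR7 (0.919) and PGK1 (0.918), and those most like MTHFD2 were VDAC2 (0.921), MRPS21 (0.889) and RPS24 (0.878).

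MYC, a transcription factor known to act on several of these genes, fell in both averages, by 1.38 ± 0.22 (adjusted p = 4.39e-05) with NEO2734 and 0.77 ± 0.22 (adjusted p = 0.0196) with OTX015 on the log2 scale. By line, which was looked at after the values were seen, the log2 fold change of MYC with NEO2734 was -3.31 ± 0.49 in TMD8, -1.63 ± 0.45 in DOHH2, -0.53 ± 0.44 in OCILy10 and -0.06 ± 0.44 in Toledo. With OTX015 it was -2.41 ± 0.46 in TMD8, -0.56 ± 0.44 in DOHH2, -0.46 ± 0.44 in OCILy10 and 0.34 ± 0.44 in Toledo. In deep libraries alone the OTX015 average of MYC was -0.45 ± 0.38. Over the 13 centred group means MYC had r of 0.750 with MTHFD1, 0.607 with BCAT1 and 0.606 with MTHFD1L. With PSPH, PHGDH and PSAT1 r was 0.525, 0.440 and 0.439, and with MTHFD2, SHMT2 and SHMT1 it was 0.264, 0.2375 and 0.069. The part of MYC in the members' values was not tested. ATF4, which controls amino acid synthesis genes, was not called in either average (-0.08 ± 0.11, adjusted p = 0.722, with NEO2734; -0.19 ± 0.11, adjusted p = 0.315, with OTX015).

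Other genes of these pathways moved in both directions. Of 22 further folate and one-carbon genes tested, 2 rose and 3 fell with NEO2734 (median log2 fold change 0.03) and 0 rose and 0 fell with OTX015 (median -0.09), beside medians over all genes tested of -0.02 and -0.03; those of the 9 members were -0.42 and -0.48. These calls made up 22.7% and 0.0% of the list, against 20.5% and 11.6% of all genes. The fit with depth class had 3 rises and 5 falls with NEO2734 (36.4%, against 30.5% of all genes), while 1 rose and 3 fell with OTX015 (18.2%, against 20.1%). SLC19A1, the reduced folate carrier, fell by 1.66 ± 0.50 (adjusted p = 0.0163) and MTR, methionine synthase, by 0.40 ± 0.12 (adjusted p = 0.0162) with NEO2734. Levels of SLC19A1 were low and varied widely. They were 0.97 ± 1.02 CPM with NEO2734 and 7.20 ± 3.65 with DMSO in TMD8 (SD). In DOHH2 they were 8.15 ± 7.34 and 23.8 ± 14.9 CPM. MAT2A, which makes S-adenosylmethionine, fell by 0.29 ± 0.10 (adjusted p = 0.0384; 0.121 without the 3 libraries with another line's genes).

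Of 17 genes of branched-chain amino acid breakdown and uptake, 1 rose and 1 fell with NEO2734 (median -0.12) and 1 rose and 0 fell with OTX015 (median 0.00), which is 11.8% and 5.88% of the list, against 20.5% and 11.6% of all genes. With depth class in the fit, 3 rose and 2 fell with NEO2734 (29.4%, against 30.5% of all genes) and 3 rose and 1 fell with OTX015 (23.5%, against 20.1%). ACADSB, a dehydrogenase of the isoleucine pathway, rose by 0.57 ± 0.12 (adjusted p = 0.000533) with NEO2734 and 0.35 ± 0.12 (adjusted p = 0.046; 0.123 without the 3 libraries) with OTX015. SLC43A1, a carrier of branched-chain and other large neutral amino acids, fell by 1.34 ± 0.38 (adjusted p = 0.0104) with NEO2734. Its levels were low too, at 2.31 ± 2.02 CPM with NEO2734 and 3.55 ± 2.60 with DMSO in DOHH2 (SD). In OCILy10 they were 9.09 ± 4.57 and 23.9 ± 12.3 CPM.

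A list of other known ATF4 targets had 21 genes tested, some of amino acid synthesis and uptake and some, such as SESN2, of other roles. Of these, 2 rose and 2 fell with NEO2734 (median -0.16) and 2 rose and 0 fell with OTX015 (median -0.12). These calls made up 19.0% and 9.52% of the list, against 20.5% and 11.6% of all genes. When depth class was added, 3 rose and 3 fell with each compound (28.6%, against 30.5% of all genes with NEO2734 and 20.1% with OTX015). SESN2, a leucine sensor that restrains mTORC1, rose by 1.28 ± 0.24 (adjusted p = 0.000275) with NEO2734 and 1.00 ± 0.24 (adjusted p = 0.00639) with OTX015. SLC38A2, a carrier of small neutral amino acids, rose by 0.35 ± 0.10 (adjusted p = 0.0119) with NEO2734 and 0.31 ± 0.10 (adjusted p = 0.0419; 0.0959 without the 3 libraries) with OTX015. SLC38A1, a glutamine carrier, fell by 0.87 ± 0.19 (adjusted p = 0.00102) and ALDH18A1, an enzyme of proline synthesis, by 0.48 ± 0.14 (adjusted p = 0.0159) with NEO2734.

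Some values may hold reads of other loci. The strandedness of the counts is not given in the sources used here, and SHMT1 overlaps SMCR8, SHMT2 overlaps NDUFA4L2, MTHFD1 overlaps ZBTB25 and MTHFD2 overlaps SLC4A5 on the opposite strand, all of them in the table; BCAT1 and MTHFD1L overlap antisense genes that are not among its rows. Pseudogene copies are annotated for MTHFD2 (7), PSAT1 (4), PSPH (1), SHMT1 (1) and MTHFD1 (1), and those of PSPH and MTHFD1 are in the table. On GRCh38 the members lie at chr12:24810022-24949459 (BCAT1), chr1:119648411-119744226 (PHGDH), chr9:78297143-78330093 (PSAT1), chr7:56011051-56051604 (PSPH), chr17:18327860-18363563 (SHMT1), chr12:57229327-57234935 (SHMT2), chr14:64388031-64463457 (MTHFD1), chr2:74198562-74217565 (MTHFD2) and chr6:150865549-151101887 (MTHFD1L) as protein-coding genes of GENCODE 29.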

How the data were processed

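Trizol RNA went into Illumina TruSeq libraries, per the labels' protocols. The authors deposited 2 tables of whole-number counts per gene for the same 39 libraries; 38 columns were equal, and the table named as raw was used because 1 column, OCILy10 CB103 replicate 1, differed (11430777 against 5474462 counts). STAR, edgeR and hg38 are named in the submitters' processing notes, with versions not given in the sources used here, as are the counting program and annotation. All column names matched a sample title. Shared label text naming other compounds and a longer time was passed over for each sample's own label. Symbols matched 15590 IDs (218 had none), with coordinates from GENCODE 29 (GRCh38).

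The deposited counts were fitted by the quasi-likelihood functions of edgeR 4.0.16 under R 4.3.3 (TMM scaling, genes kept by filterByExpr, 1 coefficient for each of 13 groups). P-values were adjusted over all 12814 genes tested (Benjamini-Hochberg), and averages are plain means over 4 lines, except in the fit of deep libraries alone, which has line and compound as terms. Depth precision follows the totals of 1000281 to 11668542 counts. Alternatives were other scalings, limma-voom 3.58.1, DESeq2 1.42.0, no filter, a replicate block, depth class (split at 5000000 counts), deep or shallow libraries alone, a line alone, leaving out 1 library or the 3 with another line's genes, and the other table's column. The principal transcript length was added after the values were seen. Code was tested on simulated data.

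Same-numbered libraries deviated together (every r over 0.1) for NEO2734 and DMSO in DOHH2 (0.870, 0.416 and 0.262), OCILy10 (0.785, 0.834 and 0.882) and TMD8 (0.854, 0.358 and 0.620), for OTX015 and DMSO in DOHH2 and TMD8, and not in Toledo, for OTX015 in OCILy10 or for CB103. In all groups that deviated together, same-numbered libraries also shared depth class. Toledo OTX015 and DMSO shared depth class by number as well, with r of 0.602, -0.193 and 0.523. Whether the numbers hold more than depth was not tested. The members and lists were chosen with earlier results of these data known. Genes named besides the members are MYC, ATF4, up to 4 called genes with the lowest adjusted p of each list, and the 3 genes most like BCAT1, PHGDH and MTHFD2. Some genes of these lists entered the counts and sums and are not reported here by name.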

Additional observations from a re-analysis of the deposited data

How the results depend on the processing

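BCAT1 passed in the averages of both bromodomain inhibitors, and MTHFD1 in that of NEO2734, in all 34 alternatives run on each; 24 of these left out 1 library each. Counts of members called changed as follows. The share of all genes called in the same fit stands in brackets, or the number of genes where a library was left out. NEO2734 average, 2 called (20.5%): 3 with upper quartile scaling (21.1%), by DESeq2 (22.8%), with the replicate block (25.7%) and in shallow libraries only (14.0%), 4 with depth class (30.5%), 5 in deep libraries only (24.4%) and 2 to 3 with a library left out (2366 to 2692 genes). OTX015 average, 1 called (11.6%): 3 with the replicate block (16.5%), 4 with depth class (20.1%), 3 in deep (12.5%) and 2 in shallow libraries only (7.36%). NEO2734 in DOHH2, 1 called (2.9%): 2 by DESeq2 (6.15%), 3 with the replicate block (5.33%), 4 with depth class (8.8%) and 2 in shallow libraries (1.49%). NEO2734 in OCILy10, 0 called (1.01%): 1 by DESeq2 (2.7%), 1 by limma-voom (3.48%) and 2 with depth class (4.89%). NEO2734 in Toledo, 1 called (5.47%): 0 without the 3 libraries with another line's genes (0.623%), 0 with Toledo alone (0.0%) and 0 to 1 with a library left out (90 to 1136 genes). OTX015 in DOHH2, 1 called (0.125%): 0 by limma-voom (0.0546%), 0 in shallow libraries (0.0155%), 0 with DOHH2 alone (0.0%) and 0 to 1 with a library left out (1 to 40 genes). OTX015 in Toledo, 0 called (3.09%): 1 with library totals (3.57%) and 1 with depth class (7.4%). DMSO levels between lines, 4 called (48.1%): 5 with the replicate block (57.7%), 6 with depth class (66.2%), 5 in shallow libraries (35.8%) and 2 to 4 with a library left out (5725 to 7005 genes). Counts over all genes moved more within a line than in the averages: for NEO2734 in DOHH2 from 372 to 68 with DOHH2 alone and 1128 with depth class (683 with the replicate block), in OCILy10 from 130 to 2 in shallow libraries and 627 with depth class, in TMD8 from 278 to 92 and 769 in the same fits, and in Toledo from 701 to 0 with Toledo alone and 1542 with depth class. For OTX015 they moved in DOHH2 from 16 to 0 alone and 152 with depth class, in OCILy10 from 9 to 1 and 109, in TMD8 from 50 to 5 in shallow libraries and 236 with depth class, in Toledo from 396 to 0 alone and 948 with depth class, and in the average from 1484 to 951 in shallow libraries and 2582 with depth class. Between the compounds 0 to 11 genes were called, for CB103 27 by DESeq2, 16 by edgeR with the other table's column for replicate 1, 92 without that replicate and 0 in the other fits, and between lines 0 to 9 for NEO2734 and 0 to 6 for OTX015. Over single members, 39 results crossed to called and 16 lost the call in an alternative. A further 249 results moved, which takes in uncalled values that changed sign and levels per kilobase by the other length. No called value changed sign. The causes were not tested. DESeq2's joint tests between lines were not run, and deep libraries alone gave the averages and CB103 only. With 3 libraries a group, some of about 1000281 counts, changes of PSAT1, SHMT1, SHMT2 and PHGDH smaller than their intervals were not detectable.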
